A study of Homo sapiens with 4 samples.

Results

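The interferon-stimulated genes are the transcripts that cells raise when interferon reaches them, and 39 of them, chosen by symbol as representatives of this response, were followed in TOV21G, an established human cell line from a clear cell carcinoma of the ovary. All 39 symbols were found among the 26255 genes of the deposited expression table, and 27 of them had a mean of at least 1 FPKM (fragments scaled to transcript length and to the size of the library) over the 4 libraries. These were 69.2% of the 39 genes, beside 46.7% of all 26255 genes. The control sample received no drug, and the sources used here do not give its time in culture. The second sample received As2O3 at 1 µM, the third GSK458 at 0.1 µM and the fourth both drugs at these doses, each for 48 h. Arsenic trioxide, As2O3, binds thiols and is given in leukaemia, whereas GSK458 blocks both PI3K and mTOR, kinases of a growth pathway. Each group was 1 library of 1 cell line, so nothing was tested and every value describes these libraries alone. Where 4 FPKM values follow each other, their order is control, As2O3, GSK458 and the combination.

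Type I and type III interferons bind receptors on the cell surface and activate the kinases JAK1 and TYK2. These phosphorylate STAT proteins, among them STAT2, which joins IRF9 in a complex that binds the interferon-stimulated response element in gene promoters. The genes it switches on sense viral RNA, degrade or edit it, block translation and virus release, attach the ubiquitin-like protein ISG15 to other proteins, and include the pathway's own factors. Many tumour lines keep part of this programme active without added interferon.

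The absolute depth of the libraries is unknown. From the spacing of low values, the factor that scaled each treated library was 85.8% to 109% of that of the control. This factor is relative depth only if the values were scaled by the total of each library, which is not known. KRT8 and KRT18, keratins of simple epithelium, were between 166 and 241 FPKM, whereas EPCAM, KRT19 and CDH1 stayed at or below 1.71 FPKM and the clear cell marker NAPSA at or below 1.06 FPKM. Of the leukocyte markers, PTPRC, CD3E, CLEC4C and LILRA4 were listed at 0 in each library, and the summed level of the 9 markers ran from 1.09 FPKM in the control to 4.55 FPKM with As2O3, most of it CD68. The 4 endothelial markers summed to at most 0.08 FPKM and the 6 fibroblast markers to 2.51 to 6.08 FPKM, highest with As2O3. The part of these markers in the differences below was not tested.

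The levels of the response genes ran from 0 to 305 FPKM. The highest was LGALS3BP, a secreted glycoprotein, at 284, 256, 305 and 239 FPKM. BST2, the membrane tether that holds budding viruses, stood at 85.4, 70.9, 57.8 and 40.1 FPKM. In bulk RNA, fewer cells that express a gene and less RNA per cell cannot be told apart. ADAR, which edits adenosine to inosine in double-stranded RNA, and ISG15 followed, with ranges of 44.8 to 56.0 and 39.1 to 44.9 FPKM. In all, 10 of the 39 genes had a mean of at least 10 FPKM (25.6%), the same share as among all 26255 genes (25.6%). By contrast OAS2, CMPK2 and XAF1 were listed at 0 in all 4 libraries, and RSAD2, the antiviral enzyme viperin, was listed at 0.0217 FPKM in the control and at 0 in the other libraries. IFI44 and IFI44L did not exceed 0.283 FPKM, OASL did not exceed 0.229 FPKM, and MX1, the dynamin-like antiviral GTPase, lay between 0.370 and 0.447 FPKM. The remaining genes below the mean of 1 FPKM were IFIH1, OAS1, USP18 and IFI27. Just outside that limit stood IFI27 with a mean of 0.757 FPKM, and just inside it HERC6 with 1.14 FPKM. An exact 0 in such a table can be a failed estimate, and genes with a mean below 1 FPKM are compared between libraries only where no filter is stated. A gene above that mean can still lie below 1 FPKM in a single library, as SAMD9 did with As2O3 at 0.501 FPKM. Differences that rest on such values are less certain.

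**Figure D1:**
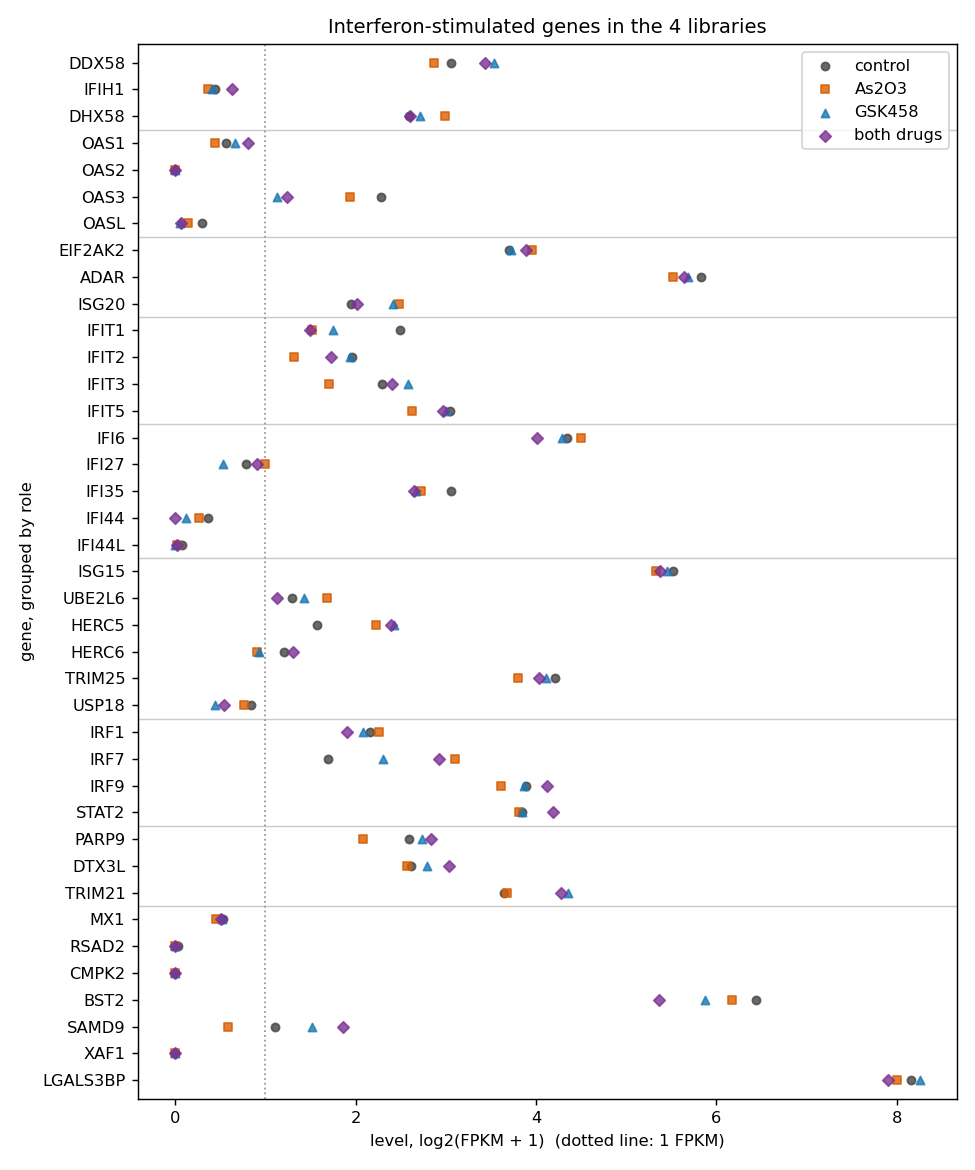
Level of each of the 39 interferon-stimulated genes on the log2(FPKM + 1) scale (x axis) in 4 libraries (control, As2O3, GSK458, both drugs), 1 point per library, with grey lines between role groups. LGALS3BP, BST2, ADAR and ISG15 lie farthest right, while OAS2, CMPK2 and XAF1 sit at 0 in each library.

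The binding site of the response complex was looked up in the promoters, because genes with and without transcript here could be set side by side. Promoter windows from RefSeq (GRCh38.p14, 250 bases before to 50 after a start site) were found for 33 of the 39 genes, DDX58 under its newer symbol, and none was used for IFIT2, DHX58, OAS2, OASL, IRF7 and USP18. The core of the response element was searched on both strands as GAAA, any 2 bases and GAAA. It occurred in at least 1 window of 21 of the 33 genes (63.6%) and in 4.38% of the 27305 genes of the whole table. By window the shares were 54.3% of 46 and 3.57% of 35116. In 18 of the 21 genes a match lay wholly before a start site, and in 12 more than 1 match fell in the same window. The gamma-activated sequence, searched as TTCNNNGAA, which reads the same on both strands, occurred in 7 of the 33 genes (21.2%) and 9.38% of all genes. In BST2, IFI27 and MX1 it overlapped a match of the first motif.

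The matches of genes with high and with almost no transcript are shown together. Capitals mark the core, which reads TTTC, 2 bases and TTTC where the match is on the other strand, and each run is given on the gene's strand. Overlapping cores appear as 1 longer run of capitals. ISG15, BST2 and LGALS3BP were among the 4 highest genes:
ISG15: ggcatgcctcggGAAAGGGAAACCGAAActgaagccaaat
BST2: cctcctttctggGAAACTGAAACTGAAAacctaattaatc
LGALS3BP: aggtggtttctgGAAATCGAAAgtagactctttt
IFIT3 also had matches before its start sites and was 1.5-fold apart, but it is not shown. IFIT1, OAS3, HERC5 and SAMD9 are examples of genes that were 1.5-fold or more apart in at least 1 comparison:
IFIT1: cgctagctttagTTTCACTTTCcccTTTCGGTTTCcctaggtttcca
OAS3: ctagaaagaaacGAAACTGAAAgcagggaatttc
HERC5: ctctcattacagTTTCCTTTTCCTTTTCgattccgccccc
SAMD9: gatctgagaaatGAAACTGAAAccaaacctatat
RSAD2 and IFI44L were at or near 0:
RSAD2: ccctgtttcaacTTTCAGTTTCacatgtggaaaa
IFI44L: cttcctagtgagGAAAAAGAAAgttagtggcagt

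These runs lie, in the order shown, at chr1:1013372-1013411 (plus strand), chr19:17405733-17405772 (minus), chr17:78979960-78979993 (minus), chr10:89392495-89392541 (plus), chr12:112938319-112938352 (plus), chr4:88456982-88457021 (plus), chr7:93118094-93118127 (minus), chr2:6877620-6877653 (plus) and chr1:78620363-78620396 (plus). ISG15 and BST2 each had 2 cores that overlap by part of their length. The ISG15 cores began at positions −113 and −107 and those of BST2 at −130 and −124, counting the last base before the start site as −1. The IFI44L run occurred a second time in the same window, at chr1:78620272-78620305. OAS3 and HERC5 each had a further core nearer the start site, at positions −12 and −74, which is not shown. A core thus occurred in genes at both ends of the range of levels. Of the 21 genes with a match, 6 had a mean below 1 FPKM (IFI27, IFI44, IFI44L, IFIH1, MX1 and RSAD2). The median of the mean levels was 3.70 FPKM over those 21 genes and 4.60 FPKM over the 12 genes without one, which included ADAR, IRF9 and STAT2 but also XAF1 and CMPK2. Only this exact core was searched, and only in these windows. A gene without a match is therefore not shown to lack the element.

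PARP9 and DTX3L, partners in a ubiquitin ligase complex, are neighbours transcribed in opposite directions. The same 10 bases, chr3:122564332-122564341, were the match of both, at position −41 of a PARP9 start and across the start site of DTX3L. On the PARP9 strand the surrounding run at chr3:122564320-122564353 reads as follows.
PARP9: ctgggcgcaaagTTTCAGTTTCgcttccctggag
PARP9 stood at 5.04, 3.25, 5.68 and 6.15 FPKM. DTX3L stood at 5.12, 4.95, 5.91 and 7.23 FPKM. Both were lowest with As2O3 alone and highest with both drugs, but the sizes differed. Against the control, the log2 differences with As2O3 were −0.51 for PARP9 and −0.04 for DTX3L. With both drugs they were 0.24 and 0.43.

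**Figure D2:**
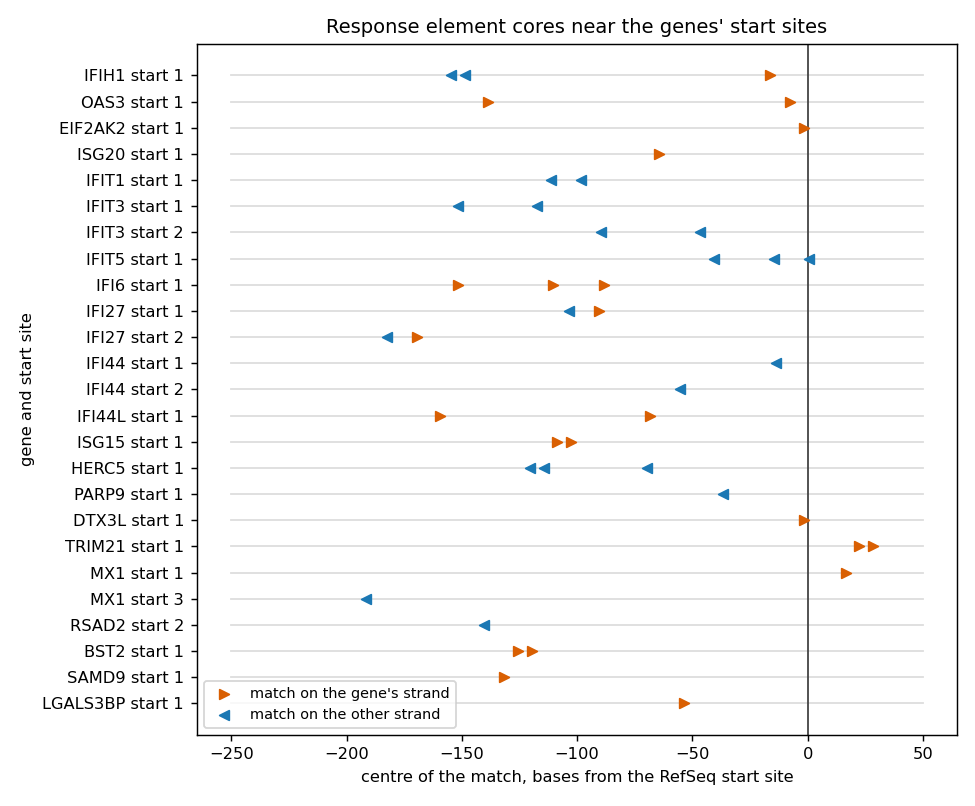
Centres of response element core matches (x axis, bases from the RefSeq start site) for each start site that holds one, with the marker direction giving the strand. Matches lie mostly before the start site, while those of TRIM21 and that of MX1 start 1 lie after it. The matches of DTX3L and EIF2AK2 and 1 match of IFIT5 reach across the start site.

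Library differences were taken as log2(FPKM + 1) for the 27 genes whose mean reached 1 FPKM. This scale understates the differences of low genes, and fold counts below refer to it. Of the 27 genes, 17 stayed within 1.5-fold in all 5 comparisons (63.0%, against 62.0% of all 12260 genes above the same mean). Only IRF7, OAS3, BST2 and SAMD9 reached 2-fold in any comparison.

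With As2O3 alone, 9 of the 27 genes were higher than in the control and 18 lower, while 51.2% of all genes were higher. The median difference was −0.20, beside 0.01 over all genes. IRF7 was 2-fold higher (background 2.07% of all genes) and none was 2-fold lower (1.41%). At 1.5-fold, HERC5 and IRF7 were higher (7.43%) and IFIT1, IFIT2 and IFIT3 lower (6.45%).

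With GSK458 alone, 13 genes were higher and 14 lower (49.4% of all genes higher), and the median was −0.0078, beside −0.0050 over all genes. No gene was 2-fold higher (2.35%) and OAS3 was 2-fold lower (3.87%). At 1.5-fold, HERC5, IRF7 and TRIM21 were higher (8.61%) and OAS3 and IFIT1 lower (10.3%). With both drugs, 14 genes were higher than in the control and 13 lower (48.8% of all genes higher), and the median was 0.0080 beside −0.01. IRF7 was 2-fold higher (3.25%), and OAS3 and BST2 were 2-fold lower (4.31%). At 1.5-fold, HERC5, IRF7, TRIM21 and SAMD9 were higher (9.93%) and OAS3, IFIT1 and BST2 lower (11.7%). These 3 comparisons share the control library. No test sets these counts of 0 to 4 genes apart from the background shares.

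**Figure D3:**
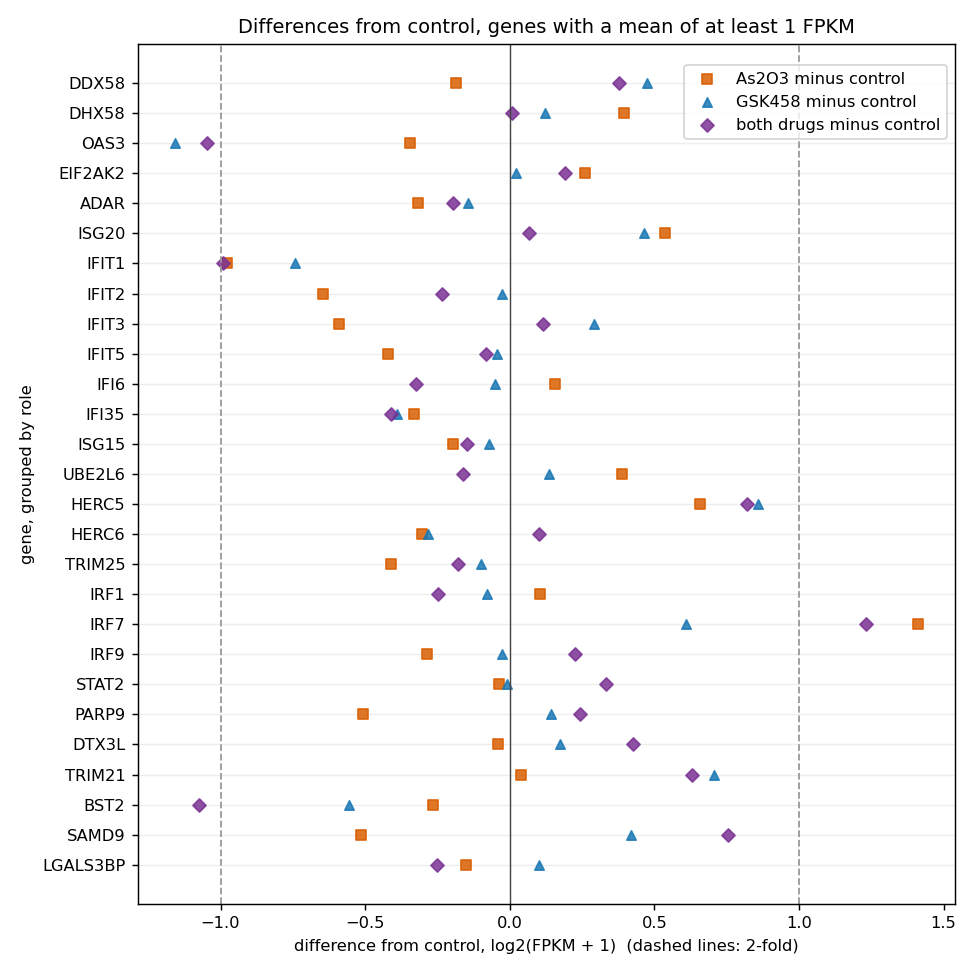
Difference from control on the log2(FPKM + 1) scale (x axis) for the 27 interferon-stimulated genes whose mean reached 1 FPKM, 1 marker per treated library and dashed lines at 2-fold. IRF7 lies right of the 2-fold line with As2O3 and with both drugs, OAS3 left of it with GSK458 and with both, and BST2 left of it with both.

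Among the transcription factors IRF7 stood apart from the rest. IRF7, the regulator that drives production of type I interferon and is itself interferon-induced, stood at 2.23, 7.61, 3.93 and 6.59 FPKM. All 3 treated libraries were above the control, and the As2O3 library was highest, 3.41-fold above it as a ratio of FPKM. Its log2 differences from the control were 1.41, 0.61 and 1.23. Adding As2O3 to GSK458 gave a difference of 0.62, and no other gene of the 27 was 1.5-fold higher in that pair (2.19% of all genes). STAT2 and IRF9, members of the response complex, had differences from control between −0.28 and 0.33, STAT2 running from 13.0 to 17.2 FPKM and IRF9 from 11.2 to 16.3 FPKM, both highest in the combination. IRF1, a factor that acts early in the response to interferon-gamma, ran from 2.75 to 3.79 FPKM.

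The IFIT proteins bind foreign RNA and block its translation. IFIT1 stood at 4.62, 1.86, 2.36 and 1.83 FPKM. Each treated library was below the control, by 2.49-fold with As2O3 and 2.53-fold with both as ratios of FPKM, and the log2 differences of −0.98, −0.74 and −0.99 missed 2-fold on the log2(FPKM + 1) scale. Over other pseudocounts and scalings its difference with As2O3 ran from −1.27 to −0.49. IFIT2 stood at 2.90, 1.496, 2.83 and 2.32 FPKM, IFIT3 at 3.89, 2.25, 4.99 and 4.29 FPKM, and IFIT5 at 7.28, 5.18, 7.02 and 6.82 FPKM. All 4 were lower with As2O3 than in the control, with log2 differences between −0.98 and −0.42. In the pair that also held GSK458 the same differences were smaller, between −0.25 and −0.04, and IFIT5 turned to 0.01 with each library rescaled to the same sum. The IFIT genes are paralogs, and the sources used here do not say how reads that map to several of them were counted.

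The oligoadenylate synthetases make the messenger that activates RNase L, which degrades RNA. OAS3, the only 1 of the 4 above the mean of 1 FPKM, stood at 3.86, 2.83, 1.18 and 1.35 FPKM. The 2 libraries with GSK458 were below the other 2, with log2 differences of −1.16 for GSK458 against the control and −0.70 for both drugs against As2O3. These levels are low, and over other pseudocounts and scalings the differences ran from −1.63 to −0.52 and from −1.01 to −0.30. OAS1 ran from 0.358 to 0.753 FPKM.

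BST2, whose levels are given above, was lower in every treated library, and its log2 differences from the control were −0.27, −0.56 and −1.07. The combination library was lowest, and the departure from the sum of the single differences was −0.25. LGALS3BP differed from the control by −0.15, 0.10 and −0.25, and the value with GSK458 reached −0.01 in the alternatives.

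SAMD9, a cytoplasmic factor that restricts poxviruses, stood at 1.15, 0.501, 1.87 and 2.62 FPKM. The libraries with GSK458 were above the others, and the combination exceeded As2O3 alone by 1.27 on the log2 scale, the only gene of the 27 that was 2-fold higher there (2.28% of all genes). These levels are low, and the difference ranged from 0.47 to 2.18 with pseudocounts of 5 and 0.1 FPKM. TRIM21, a cytosolic antibody receptor and ubiquitin ligase, stood at 11.5, 11.8, 19.4 and 18.3 FPKM. Both libraries with GSK458 were above both without it, with log2 differences of 0.71 and 0.59, and the differences with As2O3 were 0.04 (−0.04 with libraries rescaled to the same sum) and −0.08.

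In the ISG15 conjugation system, ISG15 itself was nearly level, at 44.9, 39.1, 42.7 and 40.4 FPKM. HERC5, the ligase that attaches ISG15 to new proteins, stood at 1.97, 3.69, 4.39 and 4.24 FPKM, so all treated libraries were above the control, with log2 differences of 0.66, 0.86 and 0.82. UBE2L6, the conjugating enzyme, ran from 1.19 FPKM with both drugs to 2.198 FPKM with As2O3, and HERC6 from 0.870 to 1.48 FPKM. TRIM25, a ligase that also acts on the RNA sensor encoded by DDX58, ran from 12.9 FPKM with As2O3 to 17.5 FPKM in the control. USP18, which removes ISG15 and restrains the receptor, did not exceed 0.784 FPKM.

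The RNA sensors and RNA-binding enzymes with a mean of 1 FPKM or more stayed within 1.5-fold in all 5 comparisons. DDX58, which encodes the sensor RIG-I, stood at 7.33, 6.33, 10.6 and 9.80 FPKM, so the libraries with GSK458 were above those without it by 0.48 and 0.56 on the log2 scale. DHX58, a regulator of these sensors, ran from 5.03 to 6.92 FPKM and IFIH1, the sensor MDA5, from 0.286 to 0.542 FPKM. EIF2AK2, the kinase PKR that halts translation on double-stranded RNA, ran from 11.99 to 14.6 FPKM. ISG20, an exonuclease, stood at 2.86, 4.60, 4.32 and 3.04 FPKM, above the control with each drug alone and near it with both. Its departure from additivity was −0.94, the lowest of the 27 genes. IFI6 ran from 15.2 to 21.5 FPKM and IFI35 from 5.28 to 7.34 FPKM.

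Each drug gave 2 pairs of libraries that share none. For As2O3, 13 of the 27 genes differed in the same direction without and with GSK458 (48.1%, against 58.4% of all genes), 2 of them higher (IRF7 and EIF2AK2) and 11 lower. For GSK458 the same held for 13 genes without and with As2O3 (48.1%, against 71.3% of all genes), 7 higher (DDX58, IFIT3, HERC5, PARP9, DTX3L, TRIM21 and SAMD9) and 6 lower (OAS3, IFIT1, IFI6, IFI35, IRF1 and BST2). Several of these differences were close to 0. Over the pseudocounts and scalings tried, the counts ran from 12 to 14 of the 27 genes for As2O3 and from 13 to 16 for GSK458, with 16 (59.3%) under upper-quartile scaling beside 72.2% of all genes. With no filter on the mean the shares were 41.0% and 46.2% of the 39 genes, above the 35.5% and 42.5% of all genes. A gene at 0 in both libraries of a pair stays in that total but has no direction to count. At a mean of at least 5 FPKM the shares were 58.8% and 41.2% of 17 genes, beside 59.2% and 72.1% of all genes.

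**Figure D4:**
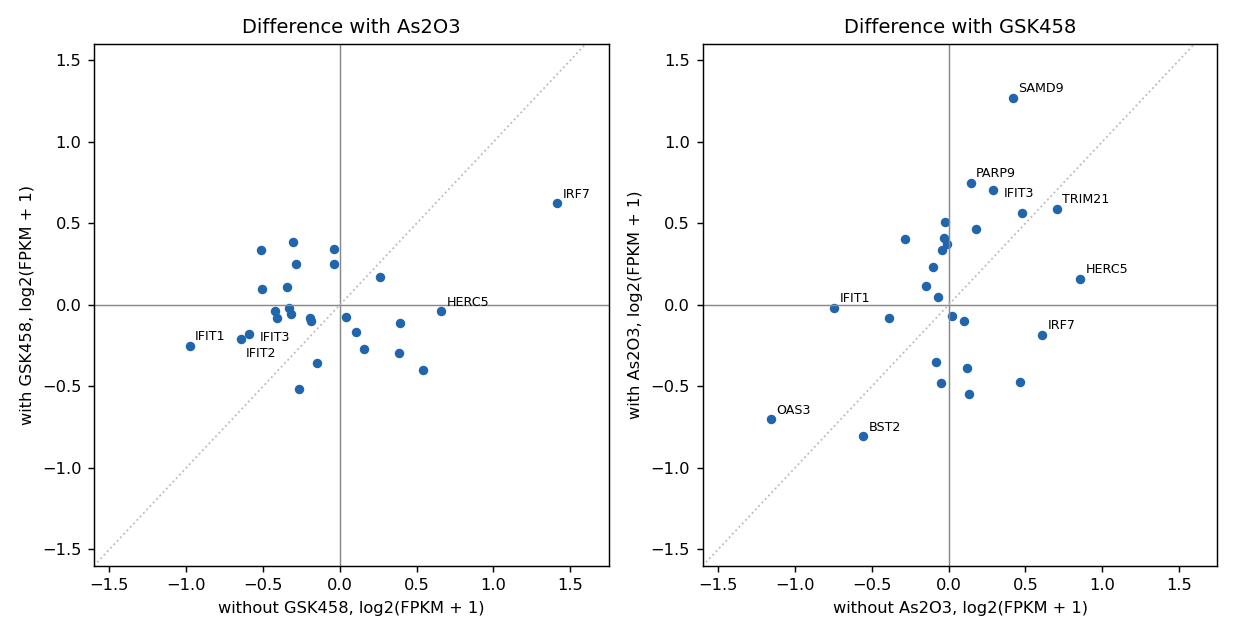
Difference with As2O3 (left) and with GSK458 (right) on the log2(FPKM + 1) scale without the other drug (x axis) and in its presence (y axis), 1 point per gene for 27 genes, with names where a difference reached 1.5-fold and a dotted line of equal values. IRF7 lies top right for As2O3, and OAS3 and BST2 lie bottom left for GSK458.

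When As2O3 was added to GSK458, 9 of the 27 genes were higher (50.5% of all genes), the median was −0.08 beside 0.0026 over all genes, and no gene reached 2-fold in either direction (0.644% of all genes higher and 0.318% lower). When GSK458 was added to As2O3, 15 were higher (47.7%), with a median of 0.12 beside −0.02. At 1.5-fold, IFIT3, PARP9, TRIM21 and SAMD9 were higher there (9.46%) and OAS3 and BST2 lower (11.6%), and no gene was 2-fold lower (4.27%). The median departure from additivity was 0.26, beside −0.0040 over all genes, and single genes ran from −0.94 for ISG20 to 0.85 for SAMD9. That median was 0.12 without a filter or with a minimum mean of 5 FPKM, and 0.40 with libraries rescaled to the same sum. A sum of 1000000 also moved all genes, to medians of −0.07 for As2O3 against control and 0.05 for both drugs against GSK458. The departure over all genes was not taken at equal sums, so the 0.40 has no background beside it. As deposited, the departure was above 0 in 16 of the 27 genes (49.6% of all genes). At 1.5-fold, IFIT1, HERC6, PARP9 and SAMD9 departed upward (6.53%) and ISG20, UBE2L6, HERC5 and IRF7 downward (7.57%). No gene departed by 2-fold (1.33% of all genes above and 2.05% below).

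**Figure D5:**
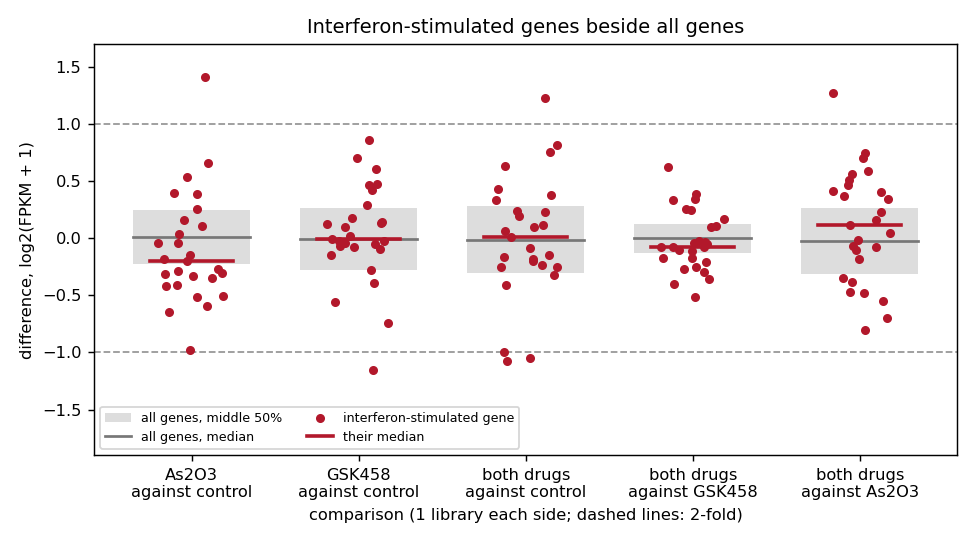
Differences on the log2(FPKM + 1) scale (y axis) for 27 interferon-stimulated genes (points, with their median as a red line) in 5 comparisons, beside the median and the middle 50% of 12260 genes (grey). The red median lies below the grey line for As2O3 against control and near it for GSK458 or both drugs against control.

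Other genes of the pathway were read from lists chosen by knowledge of it. Of 21 interferon genes, 17 were listed at 0 in all 4 libraries, and IFNE, an interferon of epithelia of the reproductive tract, was the only 1 with a mean of at least 1 FPKM. IFNE stood at 1.07, 0.587, 1.04 and 2.50 FPKM, and the combination exceeded As2O3 by 1.14 on the log2 scale. All 16 genes of the receptors, JAK kinases, STAT factors and their inhibitors had a mean of at least 1 FPKM, and none was 2-fold apart in any comparison. Against the control, 13 of them were higher for As2O3, 11 for GSK458 and 11 for the combination, with medians of 0.31, 0.14 and 0.18. Among all 12260 genes 51.2%, 49.4% and 48.8% were higher, and the medians were 0.01, −0.0050 and −0.01. SOCS1, a feedback inhibitor of JAK kinases, stood at 0.922, 0.883, 2.09 and 2.31 FPKM, and JAK1 at 2.79, 4.57, 4.53 and 5.11 FPKM. These gave the largest differences against the control, 0.79 and 0.69 with both drugs.

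Of 14 genes that sense nucleic acids upstream of interferon, 9 had a mean of at least 1 FPKM and none was 2-fold apart. MB21D1, the DNA sensor cGAS, was listed at 0 in each library, and TMEM173, its adaptor STING, did not exceed 0.23 FPKM. The largest differences were those of MAVS, the mitochondrial adaptor of the RNA sensors, and TLR3, an endosomal receptor for double-stranded RNA, at 0.68 and 0.67 when GSK458 was added to As2O3. MAVS stood at 15.6, 13.5, 18.1 and 22.2 FPKM and TLR3 at 3.70, 2.05, 4.45 and 3.87 FPKM, both lowest with As2O3 alone.

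Of 43 further interferon-stimulated genes, 32 had a mean of at least 1 FPKM. With As2O3, 20 of the 32 were higher than in the control, 2 of them 2-fold (HELZ2 and C1S) and none 2-fold lower. With GSK458, 18 were higher, 2 of them 2-fold (SP110 and C19orf66), and none was 2-fold lower. With both drugs, 22 were higher, SP110, C19orf66 and C1S by 2-fold, and IFI30 was 2-fold lower. The medians were 0.08, 0.12 and 0.18. Of all 12260 genes, 2.07%, 2.35% and 3.25% were 2-fold higher and 1.41%, 3.87% and 4.31% 2-fold lower in these comparisons. The share of all genes that were higher was 51.2%, 49.4% and 48.8%, with medians of 0.01, −0.0050 and −0.01.

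C19orf66, an inhibitor of viral frameshifting, stood at 1.41, 1.81, 5.65 and 5.74 FPKM. SP110, a nuclear body protein, stood at 2.68, 2.86, 7.57 and 8.61 FPKM. For both genes the libraries with GSK458 were above those without it, by at least 1.22 on the log2 scale in each pair. The helicase gene HELZ2 stood at 6.21, 15.99, 9.19 and 10.5 FPKM, highest with As2O3 alone. The complement protease C1S stood at 0.798, 4.29, 1.68 and 3.89 FPKM, higher in the libraries with As2O3. IFI30, a lysosomal thiol reductase, stood at 101, 79.7, 52.1 and 46.8 FPKM. The membrane proteins IFITM2 and IFITM3, near-identical paralogs whose values are uncertain, were lowest in the combination at 93.1 and 59.2 FPKM, against 153 and 107 FPKM in the control.

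Of 14 genes biased to interferon-gamma, 4 had a mean of at least 1 FPKM, and GBP1, CXCL9, CXCL11 and IRF8 were listed at 0 in each library. GBP2, a guanylate-binding protein, stood at 0.146, 1.25, 3.85 and 5.35 FPKM, and its log2 differences from the control were 0.98, 2.08 and 2.47. The control level of GBP2 is near 0, so the sizes of these differences depend on the pseudocount. Their range over other pseudocounts was not taken. The adhesion molecule ICAM1 stood at 20.03, 43.6, 24.6 and 25.3 FPKM, highest with As2O3 alone. The tryptophanyl-tRNA synthetase WARS stood at 121, 180, 55.8 and 66.9 FPKM, lower in both libraries with GSK458. GBP2 and WARS thus differed with GSK458 in opposite directions.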

How the data were processed

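RNA was sequenced from 4 samples of TOV21G cells, 1 per group, grouped by their labels, with libraries made by a stranded kit for mRNA, per the labels' protocols. The deposited table gives FPKM values that the authors made from their reads. The submitters' processing notes name, without roles, Cuffdiff 2.2.1, TopHat2 2.1.1, SAMtools 0.1.18, Bowtie2 2.2.8 and the human build hg19. Not given in the sources used here were the annotation, the strand setting and the handling of multi-mapping reads, so paralogs and overlapping genes are uncertain. FPKM keeps no read counts, so depth is unknown. Only the relative scaling factor of each library was estimated, from the commonest ratio to the control among genes below 0.5 FPKM there (350 to 362 genes shared it to 3 decimals).

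Values were used as deposited. Differences were computed after adding a pseudocount of 1 FPKM, on the log2 scale, for the 12260 genes whose mean reached 1 FPKM, and each count was set beside that of all these genes. No test was run, since no group has a replicate. All 39 genes are described. From the other lists, genes at least 2-fold apart are named, or the 2 largest differences, and IFITM2 and IFITM3 were named after their values were seen. The genes and lists were chosen with earlier results of these data known. Promoter windows came from RefSeq (GRCh38.p14), were matched by symbol or synonym and were not compared with hg19 coordinates. Scripts ran in Python 3.11.15 with pandas 2.3.3 and numpy 2.4.6 and were tested on simulated data. Alternatives were pseudocounts of 0.1 and 5 FPKM, no filter or a minimum mean of 5 FPKM, 4 scalings and a 1.5-fold threshold. Of the scalings, the one to the libraries' mean sum was chosen after seeing the data.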

Additional observations from a re-analysis of the deposited data

How the results depend on the processing

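With 1 library per group, no library could be left out, and no change has a replicate spread to be read against. A median was taken as moved where it shifted by at least 0.1. No paired analysis was possible because each group has 1 sample. No gene that was 2-fold apart changed direction in any alternative, while 13 of the 135 differences of single genes did, LGALS3BP with GSK458 (0.10) the largest of them. At 1.5-fold, 2, 3 and 4 genes were higher with As2O3, GSK458 and both drugs than in the control, 1 when As2O3 was added to GSK458 and 4 when GSK458 was added to As2O3. At 1.5-fold, 3 were lower with As2O3, 2 with GSK458 and 2 when GSK458 was added to As2O3. The shares of all genes at 1.5-fold are given with these comparisons above. With a pseudocount of 0.1 FPKM, 2 genes were 2-fold lower with As2O3, 1 was higher with GSK458, 3 were higher with both drugs and 1 was lower when GSK458 was added to As2O3. The same counts over all 12260 genes were 349, 473, 623 and 693, beside 173, 288, 399 and 524 with the pseudocount of 1 FPKM. With a pseudocount of 5 FPKM, 0 were higher with As2O3, with both drugs or when GSK458 was added to As2O3, 0 were lower with GSK458 and 1 was lower with both drugs. Over all genes these counts were 138, 166, 69, 258 and 257, beside 254, 399, 280, 475 and 528 with the pseudocount of 1 FPKM. With a minimum mean of 5 FPKM, which leaves 17 genes, 0 were higher when GSK458 was added to As2O3, 0 were lower with GSK458 and 1 was lower with both drugs. Over all 9155 genes at that mean, the same counts were 153, 355 and 393. Upper-quartile scaling and rescaling to a sum of 1000000 or to the libraries' mean sum each made 1 gene 2-fold lower with As2O3. Under upper-quartile scaling, 192 of all genes were 2-fold lower with As2O3, beside 173 as deposited. Without a filter, medians were −0.081 with As2O3 and 0 when GSK458 was added to As2O3, beside 0 over all genes in either comparison. The median departure from additivity was 0.12 without a filter or with the minimum of 5 FPKM, and 0.40 after either rescaling to equal sums. That median was not taken over all genes in these settings. The median with GSK458 was −0.12 at a sum of 1000000 and −0.11 at the mean sum, where all genes had −0.11 at either. Over all genes, 254 were 2-fold higher and 173 lower with As2O3 as deposited, and 214 and 221 at the mean sum. At a sum of 1000000, which also raises every value against the pseudocount, they were 246 and 292. Of the 27 genes, 11 were higher with GSK458 at equal sums (16 with upper-quartile scaling, 13 as deposited) and 13 when As2O3 was added to GSK458 (9 as deposited). The share of all genes moved the same way. With GSK458 it was 39.3% at equal sums, 53.6% with upper-quartile scaling and 49.4% as deposited. When As2O3 was added to GSK458 it was 60.7% at equal sums and 50.5% as deposited.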
